A study of Rattus norvegicus with 47 samples.

Results

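The genes followed here mark the endothelium of the liver: Stab2, Lyve1 and Fcgr2b for sinusoidal cells, Pecam1, Vwf, Kdr, Plvap and Cd34 for capillary or general endothelium, and Vegfa, the ligand of Kdr. They were taken by symbol from the table that pairs the array's probe sets with genes. Of the 9 listed genes, 8 were measured, through 11 of 31042 probe sets, and 8 of the 14217 genes tested are theirs. Cd34 was not analysed here.

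All arrays came from male Wistar rats, called Han-Wistar in the growth protocol. At 4 weeks of age each rat received 1 dose of N-nitrosomorpholine (250 mg/kg), an initiating carcinogen. After 3 weeks of recovery, phenobarbital (50 mg/kg per day), a promoter of liver tumours, was given in the drinking water for up to 17 months. By the labels both agents were given to the rats of every group. The surrounding liver that serves as control is therefore initiated and phenobarbital-exposed tissue, not untreated liver. The labels give the same treatment for 3 arrays named C43, which their group labels call normal and which entered no comparison. Frozen tissue gave 7 arrays of surrounding liver (5 rats), 5 of nodules (3 rats), 6 of adenomas (2 rats), 4 of carcinomas (3 rats) and 4 of carcinomas whose group label names a beta-catenin mutation (3 rats). Formalin-fixed, paraffin-embedded (FFPE) tissue, cut out by laser microdissection, gave 4 arrays of surrounding liver (4 rats), 9 of foci (3 rats) and 5 of adenomas (3 rats). The lesions came from 7 rats in all, nothing in the labels says that lesions of 1 rat are independent, and every comparison with surrounding liver of a fixation shares the same control arrays. Labels disagree for 2 arrays, which were kept in their labelled groups. For replicate 1 of the beta-catenin carcinomas the mutation is missing from the source name, and replicate 4 of the FFPE adenomas has surrounding tissue as its source.

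Liver sinusoids are lined by fenestrated endothelial cells that lack a continuous basement membrane and clear macromolecules from blood through scavenger receptors. Capillary endothelium elsewhere rests on a basement membrane, and Plvap forms the diaphragms of its fenestrae. In many liver tumours the sinusoidal lining is replaced by capillary-like vessels with a laminin and collagen IV sheath, a process called capillarization. Vegfa is made largely by hepatocytes and acts on endothelial Kdr. In whole tissue, fewer cells of a type and less RNA per cell cannot be told apart.

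Kdr and Lyve1 were the markers whose beta-catenin carcinoma and surrounding values did not overlap, which was not set against a share over all genes. Their promoters are shown beside those of Stab2, another sinusoidal scavenger receptor gene, and Plvap, a marker of the opposite class. The sequences are RefSeq's for the GRCr8 assembly, 250 bases before to 50 after the start, with capitals on every GGAA or its complement TTCC, the core bound by ETS factors, a family that includes regulators of endothelial genes. The 4 windows lie at chr14:32571813-32572112 (Kdr, plus strand), chr1:174410928-174411227 (Lyve1, minus strand), chr7:23320513-23320812 (Stab2, minus strand) and chr16:18231230-18231529 (Plvap, minus strand).
Kdr: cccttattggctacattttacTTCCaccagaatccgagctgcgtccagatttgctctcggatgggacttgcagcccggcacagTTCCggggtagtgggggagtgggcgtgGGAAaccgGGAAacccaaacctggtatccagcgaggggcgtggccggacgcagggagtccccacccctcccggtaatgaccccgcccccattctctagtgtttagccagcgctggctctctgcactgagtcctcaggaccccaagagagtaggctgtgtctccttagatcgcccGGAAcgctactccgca
Lyve1: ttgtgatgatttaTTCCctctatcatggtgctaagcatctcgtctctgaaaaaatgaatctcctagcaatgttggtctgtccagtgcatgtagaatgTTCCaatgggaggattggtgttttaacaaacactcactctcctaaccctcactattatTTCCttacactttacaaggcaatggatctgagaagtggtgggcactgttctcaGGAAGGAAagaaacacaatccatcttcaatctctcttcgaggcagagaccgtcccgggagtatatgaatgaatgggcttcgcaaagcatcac
Stab2: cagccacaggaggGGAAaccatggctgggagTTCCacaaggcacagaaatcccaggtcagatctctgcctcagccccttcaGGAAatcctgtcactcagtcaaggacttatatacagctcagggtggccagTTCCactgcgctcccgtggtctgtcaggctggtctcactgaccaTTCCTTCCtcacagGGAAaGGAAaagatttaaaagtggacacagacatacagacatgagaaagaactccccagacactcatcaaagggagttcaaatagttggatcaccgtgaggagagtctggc
Plvap: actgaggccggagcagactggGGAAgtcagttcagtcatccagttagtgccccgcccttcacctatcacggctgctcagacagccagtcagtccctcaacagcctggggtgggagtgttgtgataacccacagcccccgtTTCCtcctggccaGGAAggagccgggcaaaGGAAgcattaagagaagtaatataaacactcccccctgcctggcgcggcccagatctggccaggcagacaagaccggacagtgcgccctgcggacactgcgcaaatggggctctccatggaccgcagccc
The core occurred 5 times in the Kdr window, 5 times in Lyve1, 8 times in Stab2 and 4 times in Plvap, counting both strands. It was present in 95.8% of 33469 promoter windows of the same length, with a median of 3 sites. The GATAA motif of GATA factors was found once in Plvap and not in the windows of Kdr, Lyve1 and Stab2, against 26.5% of all windows. The ACGTG core of the hypoxia response element was in none of these 4, against 19.3% of all windows. These matches are letters in a window and not binding sites.

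Every value below is a log2 array signal as deposited, and a change is the fitted log2 difference between groups ± its standard error from limma with the rat as a term. A gene was called where its p, adjusted over all 14217 genes by Benjamini-Hochberg, was under 0.05. Signals of different genes, and of frozen and FFPE tissue, are not compared as levels. Array medians lay between 5.49 and 5.59 in frozen and between 5.58 and 5.68 in FFPE tissue. By mean signal in frozen tissue the genes' brightest probe sets ran from the 62.8th percentile of all probe sets (Vwf) to the 94.9th (Vegfa), while the additional Kdr probe set was dim (30th percentile). In FFPE tissue Pecam1 was at the 45.6th percentile. Hepatocyte markers averaged 13.0 to 13.7 in the frozen arrays.

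In beta-catenin-labelled carcinomas 1 of the 8 markers was called against surrounding liver, and it fell, beside 9.58% of all genes falling and 17.3% called in either direction. That gene was Kdr, the main signalling receptor for Vegfa. Its signals in the 4 carcinomas were 9.07, 9.54, 8.88 and 9.35, and in surrounding liver they ran from 9.67 to 10.07 with a median of 9.86. The groups did not overlap. Kdr fell by 0.63 ± 0.17 on the log2 scale (1.55-fold, adjusted p = 0.0145 by limma), and it was lower in 3 of 3 rats with both tissues. The call rested on single arrays: the change was -0.57 (adjusted p = 0.0606) without replicate 1, whose labels disagree, and -0.56 (adjusted p = 0.0622) without replicate 3. The dim additional Kdr probe set gave -0.26 (adjusted p = 0.134 over all probe sets).

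The sinusoidal markers had changes of similar size in these carcinomas without passing the test. Lyve1, a hyaluronan receptor, measured 9.53, 9.60, 9.23 and 9.59, all under the surrounding range of 10.08 to 10.39 (median 10.15). Its change was -0.65 ± 0.25 (95% interval -1.17 to -0.12, adjusted p = 0.0839), and the other Lyve1 probe set gave -0.64. Fcgr2b, the inhibitory Fc receptor that sinusoidal cells use to clear immune complexes, measured 9.90, 9.17, 8.88 and 9.47 against 9.80 to 10.35 (median 10.19), and only the first carcinoma reached into the surrounding range. Its change was -0.69 ± 0.26 (-1.24 to -0.14, adjusted p = 0.0775). Both were lower in 3 of 3 rats. Both passed the test when the rat was left out as a fixed term (adjusted p = 0.0359 and 0.0314), when it was a random block (0.0373 and 0.0325) and when only the groups compared were fitted (0.0073 and 0.0301), and without adenoma replicate 3 (0.0362 and 0.0344). With the control set named in the labels as the block they did not (adjusted p = 0.199 and 0.103). Stab2, the hyaluronan scavenger receptor, measured 7.94, 8.60, 8.35 and 8.99 and overlapped the surrounding range of 8.54 to 9.15, with a change of -0.29 ± 0.26 (adjusted p = 0.5).

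Among the capillary or general markers in the same carcinomas, Plvap measured 8.10, 7.71, 7.33 and 7.24 against 6.97 to 7.46 (median 7.24). Replicates 1 and 2 lay above the surrounding range and the other 2 inside it, with a change of 0.43 ± 0.21 (-0.01 to 0.87, adjusted p = 0.178). Pecam1, an adhesion molecule of endothelial junctions, measured 7.25, 6.66, 6.47 and 6.32, with only replicate 1 above the surrounding range of 6.34 to 6.85. Vwf, the clotting factor stored in large-vessel and capillary endothelium, stood at 7.92 in replicate 1 and at 5.46, 5.65 and 5.51 in the others. The surrounding range of Vwf was 6.32 to 7.14, so the array with doubtful labels lay above it and the other 3 below it, and the fitted change was -0.25 ± 0.34 (adjusted p = 0.692). In that array Stab2 was the lowest of the 4, while Pecam1, Plvap and Vwf, and also the sinusoidal marker Fcgr2b, were the highest.

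**Figure D1:**
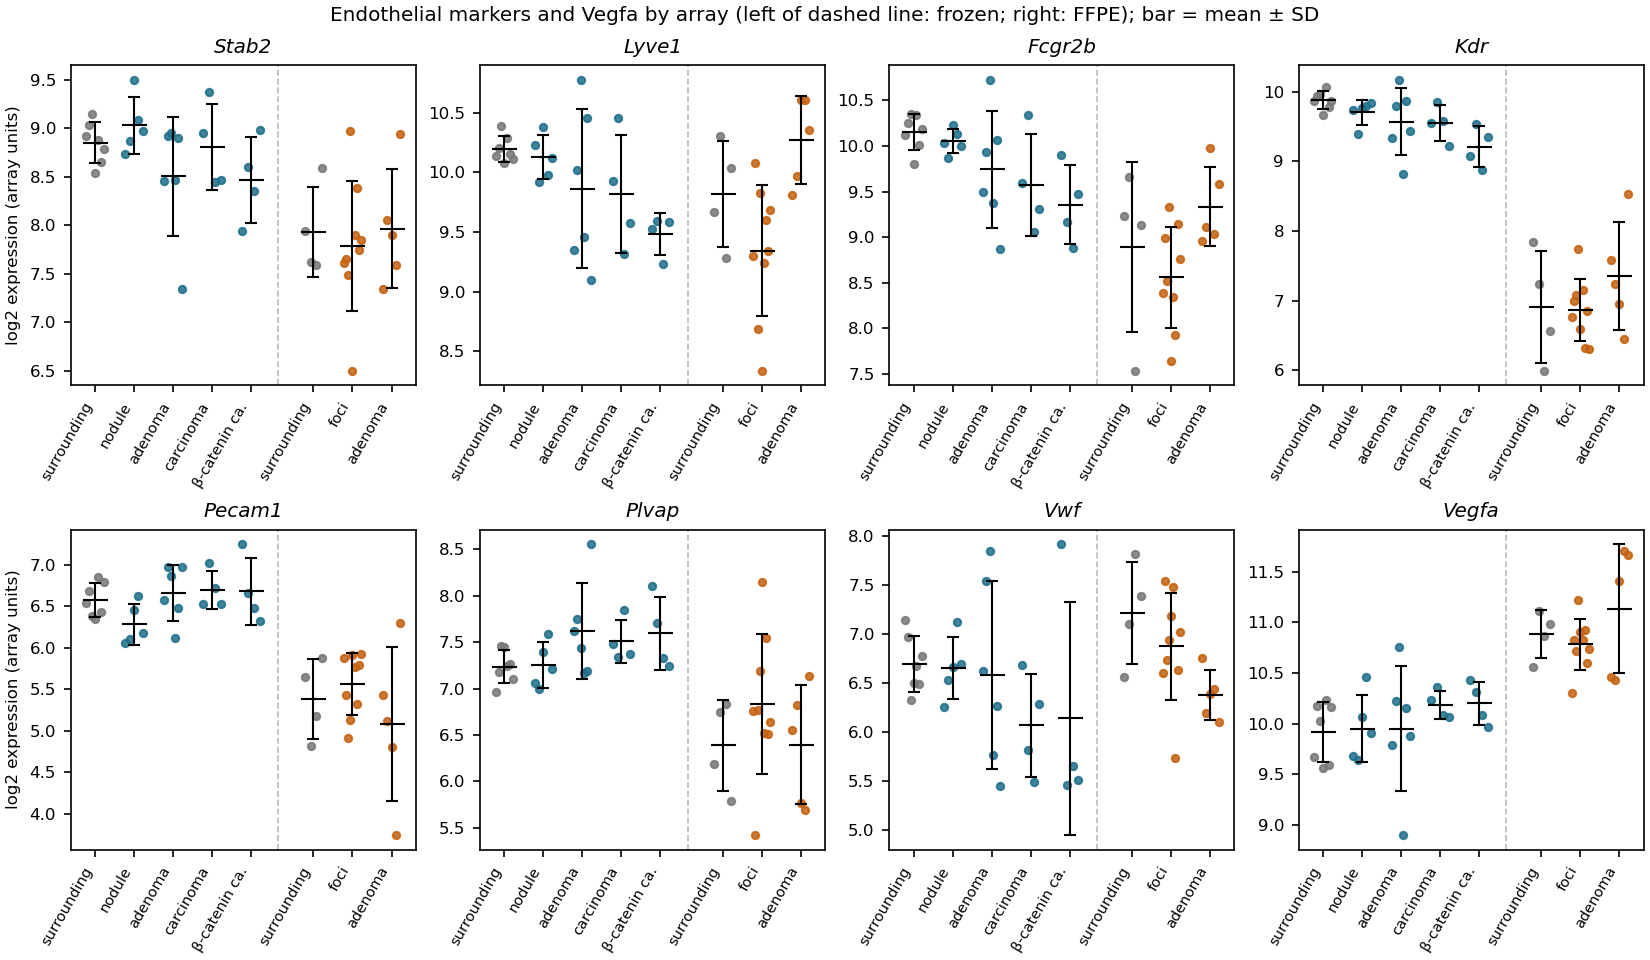
Log2 signal of each gene (y axis) in every array by group (x axis), frozen tissue left and FFPE tissue right of the dashed line, with points for arrays and bars for mean ± SD. The 4 beta-catenin-labelled carcinomas lie below all 7 surrounding arrays for Kdr and Lyve1, and the frozen adenomas scatter more widely than frozen surrounding liver for every gene.

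None of the 8 markers was called in carcinomas without the label, where 11.4% of all genes were called. There 3557 of 14217 genes and 1 of the 8 markers had an unadjusted limma p under 0.05. That gene was again Kdr, with signals of 9.54, 9.85, 9.57 and 9.23 and a change of -0.39 ± 0.18 (adjusted p = 0.174). Fcgr2b had a change of -0.54 ± 0.27 (adjusted p = 0.224) and Lyve1 one of -0.37 ± 0.26 (adjusted p = 0.413), each lower in 3 of 3 rats. Carcinoma replicates 2 and 3, both from rat 21, lay far apart in these genes. Replicate 2 had 10.34 for Fcgr2b, 10.46 for Lyve1 and 9.37 for Stab2, and replicate 3 had 9.05, 9.32 and 8.45. The Stab2 change was -0.003 ± 0.27, with a 95% interval from -0.56 to 0.56. Plvap had a change of 0.30 ± 0.22 and was higher in 3 of 3 rats (adjusted p = 0.441), while that of Pecam1 was 0.08 ± 0.19 and that of Vwf -0.29 ± 0.36. Fitted on the 2 groups alone, Kdr (-0.44, adjusted p = 0.0242) and Vwf (-0.58, adjusted p = 0.0479) passed the test.

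The carcinomas with and without the label were also compared directly. Limma called 0% of all 14217 genes there, with 723 genes at an unadjusted p under 0.05, none of them a marker. The changes of Kdr (-0.24 ± 0.19), Lyve1 (-0.27 ± 0.28), Fcgr2b (-0.14 ± 0.29) and Stab2 (-0.29 ± 0.29) all had 95% intervals spanning 0, for Kdr from -0.64 to 0.16. A difference in Kdr between the carcinoma groups was therefore not shown.

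In adenomas 25% of all genes were called and none of the 8 markers. An unadjusted limma p under 0.05 was reached by 5275 of 14217 genes and by 1 of the 8 markers. It was Plvap, with signals of 7.62, 7.75 and 7.44 in the adenomas of rat 14 and 7.17, 7.19 and 8.56 in those of rat 23. Its lowest, median and highest values were 7.17, 7.53 and 8.56, and 3 of the 6 adenomas lay above the surrounding range. The change was 0.46 ± 0.21 (0.03 to 0.89, adjusted p = 0.11). The sinusoidal genes had changes of -0.31 ± 0.25 (Stab2), -0.29 ± 0.24 (Lyve1) and -0.31 ± 0.25 (Fcgr2b), with adjusted p of 0.399, 0.416 and 0.403, and Kdr one of -0.27 ± 0.17 (adjusted p = 0.262). Pecam1 (0.19 ± 0.17) and Vwf (-0.09 ± 0.33) also did not pass.

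The adenomas scattered more widely than surrounding liver, and the carcinoma groups did so too except in Vegfa. On its brighter probe set Vegfa had an SD of 0.30 in surrounding liver, 0.14 in carcinomas without the label and 0.21 in those with it. The SD of Lyve1 was 0.67 among 6 adenomas and 0.11 among 7 surrounding arrays, that of Fcgr2b 0.64 and 0.20, that of Kdr 0.48 and 0.13, and that of Vwf 0.96 and 0.29. In the same order of genes the SDs were 0.49, 0.56, 0.26 and 0.52 in carcinomas without the label. In beta-catenin-labelled carcinomas they were 0.17, 0.44, 0.29 and 1.19. These SDs are descriptions and were not tested. Adenoma replicate 3 of rat 14 had the highest Lyve1 (10.78), Fcgr2b (10.73), Kdr (10.17) and Stab2 (8.96) of the group, all but Stab2 above every surrounding array. Adenoma replicate 6 of rat 23 had the lowest Stab2 (7.34), Lyve1 (9.10), Fcgr2b (8.87) and Vwf (5.45) and the highest Plvap (8.56) and Pecam1 (6.98). Vwf followed the rat: 6.62, 7.54 and 7.85 in rat 14 and 5.76, 6.26 and 5.45 in rat 23.

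In frozen nodules limma called 0.225% of all genes and none of the 8 markers. None of the 8 had an unadjusted limma p under 0.05, beside 1811 of 14217 genes. The largest shifts were in Vwf (-0.44 ± 0.34) and Pecam1 (-0.36 ± 0.18, adjusted p = 0.398), and the sinusoidal genes lay between -0.26 and 0.05. With the control set named in the labels as the block, Vwf had a change of -0.18 and Pecam1 one of -0.20. Stab2 was 8.74, 8.87, 9.50, 9.09 and 8.98 in the 5 nodules, and only replicate 3 lay above the surrounding range. Between adenomas and nodules 0% of all genes were called (2265 at an unadjusted limma p under 0.05) and none of the markers, with Pecam1 at 0.56 ± 0.21 (adjusted p = 0.202) and Plvap at 0.56 ± 0.25 (adjusted p = 0.275). Only rat 14 had both lesions. Between carcinomas and adenomas 2.95% of genes were called and none of the 8 markers, whose changes ran from -0.23 (Fcgr2b) to 0.30 (Stab2). No marker had an unadjusted limma p under 0.05 there, beside 3111 of 14217 genes.

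Ordered by mean signal ± SD, Kdr was highest in surrounding liver (9.88 ± 0.13, n = 7), then nodules (9.70 ± 0.18, n = 5), adenomas (9.57 ± 0.48, n = 6), carcinomas (9.55 ± 0.26, n = 4) and beta-catenin-labelled carcinomas (9.21 ± 0.29, n = 4). Lyve1 had the same order (10.20 ± 0.11, 10.13 ± 0.19, 9.86 ± 0.67, 9.82 ± 0.49 and 9.48 ± 0.17), and so did Fcgr2b (10.15 ± 0.20, 10.06 ± 0.14, 9.74 ± 0.64, 9.57 ± 0.56 and 9.36 ± 0.44). In each of these orders neighbouring groups overlapped. Stab2 was highest in nodules (9.03 ± 0.29), ahead of surrounding liver (8.85 ± 0.21), carcinomas (8.81 ± 0.44), adenomas (8.51 ± 0.61) and beta-catenin-labelled carcinomas (8.47 ± 0.44). Plvap ran the other way, from surrounding liver (7.24 ± 0.18) and nodules (7.25 ± 0.25) to carcinomas (7.51 ± 0.23), beta-catenin-labelled carcinomas (7.60 ± 0.40) and adenomas (7.62 ± 0.51). Pecam1 was lowest in nodules (6.28 ± 0.25) and between 6.58 and 6.70 in the other groups. Surrounding arrays of the control sets without carcinomas averaged 6.42 for Pecam1 (n = 4). Vwf was between 6.58 and 6.69 in surrounding liver, nodules and adenomas and at 6.07 ± 0.52 and 6.14 ± 1.19 in the carcinoma groups.

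**Figure D2:**
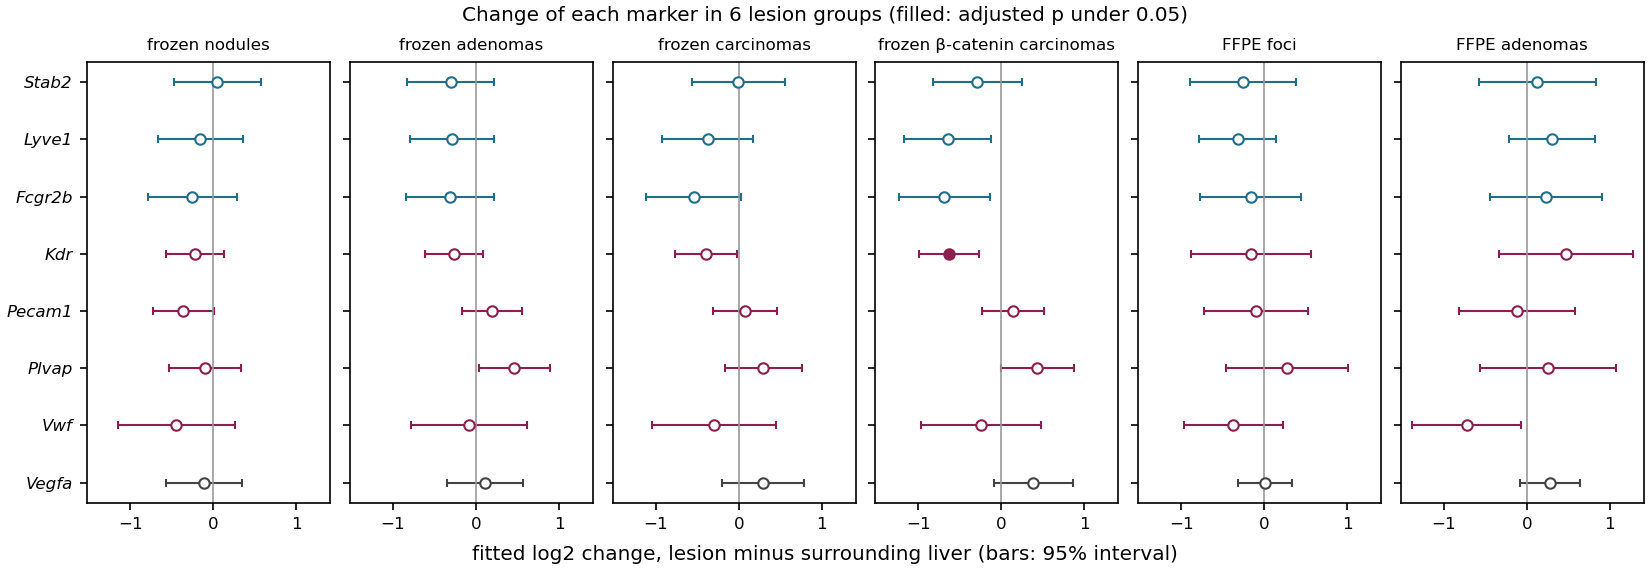
Fitted log2 change from surrounding liver (x axis) of each gene (y axis) in 6 lesion groups, with 95% intervals as bars and filled points for an adjusted p under 0.05. The only filled point is Kdr in beta-catenin-labelled carcinomas at -0.63.

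In microdissected FFPE foci 3.18% of all genes were called (1.81% rose and 1.36% fell) and none of the 8 markers. No marker reached an unadjusted limma p under 0.05, beside 1895 of 14217 genes. Lyve1 in the 9 foci had its lowest, median and highest values at 8.34, 9.34 and 10.08, against 9.67, 10.30, 9.28 and 10.04 in surrounding liver. Its change was -0.32 ± 0.23, lower in 3 of 3 rats (adjusted p = 0.605). Plvap ranged from 5.42 to 8.15 with a median of 6.75, against 6.19, 6.75, 6.83 and 5.79 in surrounding liver, with a change of 0.28 ± 0.36. Focus replicate 5 of rat 18 had both the highest Plvap (8.15) and the lowest Stab2 (6.50), Lyve1 (8.34) and Fcgr2b (7.64) of the 9 foci. Stab2 in foci ran from 6.50 to 8.97 with a median of 7.75, against 7.95, 7.62, 7.59 and 8.59 in surrounding liver, and Kdr from 6.30 to 7.74 with a median of 6.85, against 7.84, 7.25, 5.99 and 6.57. Both groups overlapped in both genes. The control array of rat 18, surrounding replicate 3, was itself low in Fcgr2b (7.53), Lyve1 (9.28) and Kdr (5.99).

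FFPE adenomas gave 2.16% of genes called (1.29% rose and 0.872% fell) and no marker. At an unadjusted limma p under 0.05 were 1716 of 14217 genes and 1 of the 8 markers. That was Vwf, with 6.75, 6.19, 6.39, 6.44 and 6.10 against 6.56, 7.10, 7.81 and 7.38 in surrounding liver, a change of -0.73 ± 0.32 and lower in 3 of 3 rats (adjusted p = 0.351). All 3 sinusoidal genes had a change above 0 (Stab2 0.13 ± 0.34, Lyve1 0.31 ± 0.25, Fcgr2b 0.23 ± 0.33), opposite in sign to the frozen adenomas. Kdr was 7.58, 7.25, 6.96, 6.45 and 8.53 in the adenomas (0.47 ± 0.39, adjusted p = 0.727), and only the adenoma of rat 7 lay above the surrounding range. Pecam1 was 5.43, 5.12, 4.80, 3.74 and 6.29 against 5.65, 4.81, 5.18 and 5.88 (-0.12 ± 0.34), with replicate 4, whose source name reads otherwise, the lowest. The test of the frozen against the FFPE adenoma change called 0.331% of all genes and none of the 8 markers. By this test no marker had an unadjusted limma p under 0.05, beside 1653 of 14217 genes. For Kdr that difference was -0.74 (adjusted p = 0.514). For Lyve1 it was -0.53 on the probe set used in frozen tissue and -0.75 (adjusted p = 0.462 over all probe sets) on the other one, used for the FFPE values here, so a difference between fixations was not shown. In the titles, frozen adenoma replicates 2 and 3 share lesion codes with FFPE adenoma replicates 3 and 4, all of rat 14. The test took the rat within each fixation and did not pair these arrays. Between FFPE adenomas and foci 0% of genes were called by limma (633 at an unadjusted p under 0.05). Lyve1 was the 1 marker among those, with adenoma values of 9.81, 9.97, 10.61, 10.61 and 10.35, a change of 0.62 ± 0.24 and an adjusted p of 0.999.

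The balance of the marker classes was taken in each array as the mean of Pecam1, Vwf, Kdr and Plvap minus the mean of Stab2, Lyve1 and Fcgr2b. It has no absolute meaning and is given as a description. Kdr counts on its capillary or general side, though its frozen group means had the same order as those of Lyve1 and Fcgr2b. Frozen surrounding liver averaged -2.14 ± 0.14 (SD, n = 7; -2.43 to -1.99), nodules -2.27 ± 0.20 (n = 5), adenomas -1.76 ± 0.55 (n = 6; -2.36 to -0.83), carcinomas -1.95 ± 0.44 (n = 4) and beta-catenin-labelled carcinomas -1.70 ± 0.50 (n = 4; -2.24 to -1.04). Every lesion group overlapped surrounding liver. The extreme arrays were adenoma replicate 6 (-0.83) and beta-catenin carcinoma replicate 1 (-1.04). In the latter the shift came with a capillary mean of 8.09 and a sinusoidal mean of 9.12, and in the former with a sinusoidal mean of 8.44, the lowest of the frozen arrays. FFPE surrounding liver averaged -2.41 ± 0.52 (n = 4), foci -2.03 ± 0.64 (n = 9; -2.62 to -0.53) and adenomas -2.89 ± 0.61 (n = 5).

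**Figure D3:**
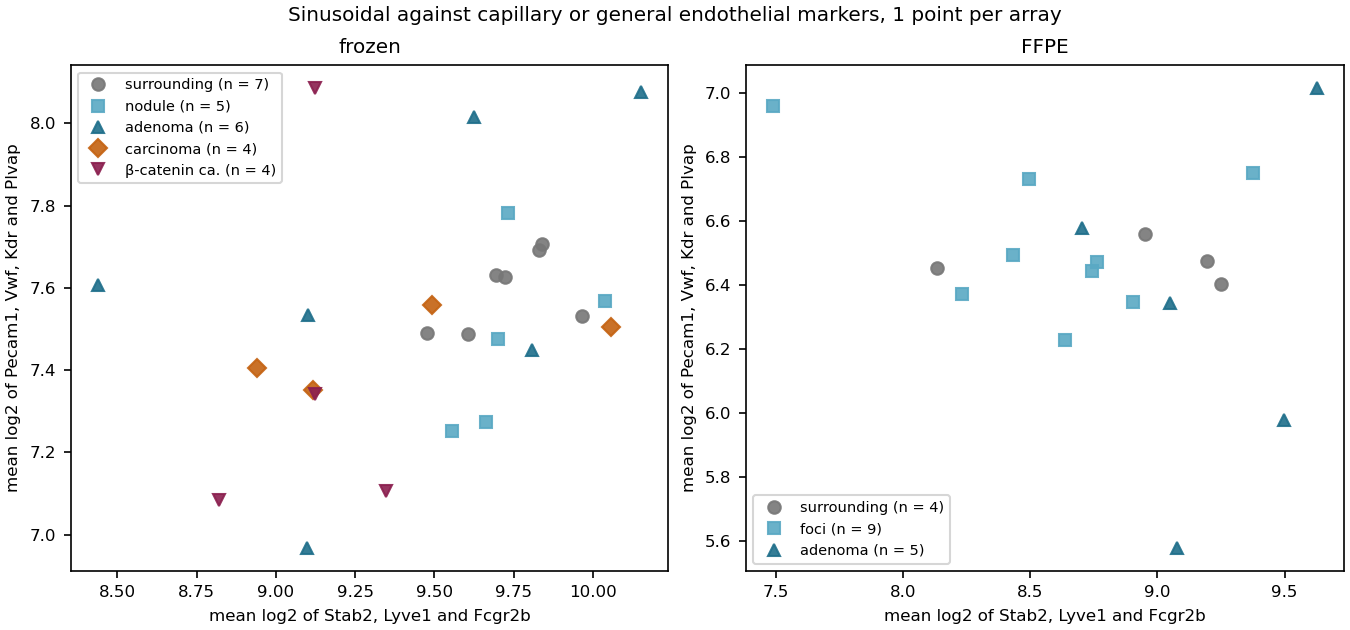
Mean log2 signal of Pecam1, Vwf, Kdr and Plvap (y axis) against that of Stab2, Lyve1 and Fcgr2b (x axis) in each frozen (left) and FFPE (right) array. Frozen surrounding arrays form a tight group, and frozen lesions spread from it on both axes. Their sinusoidal means reach down to 8.44 in 1 adenoma, and their capillary means run from 6.97 to 8.09.

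Likeness to each marker was taken as Pearson's r over the 26 labelled frozen arrays, which share rats, groups and control sets, and is a description only. Lyve1 was most like Fcgr2b (r = 0.93), Bmp2 (0.93), the sinusoidal signal that drives hepatocyte hepcidin, and Clec1b (0.89). Fcgr2b was most like Lyve1, Bmp2 (0.90) and Adgrf5 (0.85). Kdr, counted here with the capillary or general markers, was most like Adgrf5 (0.85), Lyve1 (0.83) and Clec1b (0.81). Stab2 was most like Il1a (0.82), Dnase1l3 (0.81), a secreted nuclease of sinusoidal cells and macrophages, and Cldn1 (0.77). Pecam1 was nearest to Tie1 (0.85), an endothelial receptor, Arap3 (0.78) and Mbtps1 (0.77), and Plvap to Zfp36l2 (0.81), Cd200 (0.78) and Nid2 (0.78), a basement membrane protein. Vwf was nearest to Col14a1 (0.84), Nt5c (0.77) and Reln (0.77), and Vegfa to Arap3 (0.84), Ramp2 (0.80) and Zfp503 (0.73).

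Vegfa itself was called in none of the comparisons, and its probe sets gave different values. On the brighter frozen probe set the surrounding arrays ran from 9.56 to 10.23, and the adenomas were 9.79, 10.23, 10.75, 8.90, 10.15 and 9.88. Changes from surrounding liver were -0.11 ± 0.22 in nodules, 0.11 ± 0.22 in adenomas, 0.29 ± 0.24 in carcinomas and 0.38 ± 0.23 in beta-catenin-labelled carcinomas (adjusted p = 0.272 for the last). The other probe set gave -0.46 ± 0.18 in adenomas (adjusted p = 0.0821 over all probe sets) and 0.46 ± 0.19 in beta-catenin-labelled carcinomas (0.111). Its values followed the control set that the labels give each frozen lesion. Surrounding arrays of the carcinomas' control sets had 8.05, 8.03 and 8.06, and the other 4 had 7.26, 7.16, 7.06 and 7.14, with no overlap. Carcinomas of both groups had 7.77 to 8.22, nodules 6.98 to 7.23 and adenomas 6.57 to 7.35. With the control set as the block, this probe set had changes of -0.10 in adenomas, -0.04 in carcinomas and 0.04 in beta-catenin-labelled carcinomas. The brighter probe set then had changes of 0.38, -0.02 and 0.04. Its surrounding arrays were also split by control set without overlap. They ran from 10.16 to 10.23 in the carcinomas' sets and from 9.56 to 10.02 in the others. Its lesion values overlapped between the sets. The part of the control set in the Vegfa values was not tested apart from the lesion type, since no control set holds both adenomas and carcinomas.

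Pecam1 was split by control set in the same way in surrounding liver, at 6.69 to 6.85 in the carcinomas' sets (n = 3) and 6.34 to 6.54 in the others (n = 4). With the control set as the block, its change was -0.11 in carcinomas and -0.05 in beta-catenin-labelled carcinomas, turning the sign. Under that block Kdr in beta-catenin-labelled carcinomas had a change of -0.71, with an adjusted p of 0.0416 over genes and 0.0527 over all probe sets, and Fcgr2b and Lyve1 then had changes of -0.86 and -0.68. In the FFPE arrays Vegfa had changes of 0.02 ± 0.16 in foci and 0.28 ± 0.18 in adenomas on the probe set that is brighter in FFPE tissue, with adenoma values of 10.46 and 10.43 in rat 10, 11.41 and 11.71 in rat 14 and 11.66 in rat 7. The probe set that is brighter in frozen tissue gave 0.19 ± 0.18 in foci and 0.46 ± 0.20 in FFPE adenomas (adjusted p = 0.405 over all probe sets).

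**Figure D4:**
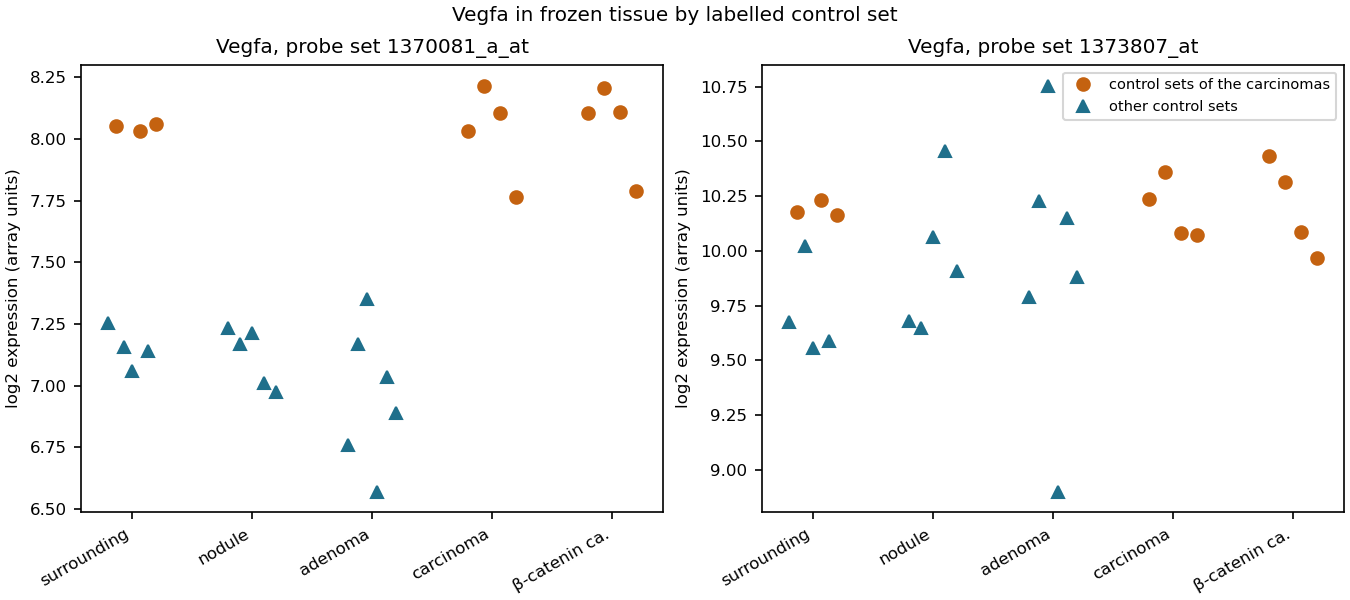
Log2 signal of the Vegfa probe sets (y axes) in each frozen array by group (x axis), with circles for arrays of the carcinomas' control sets and triangles for the others. On the left probe set every circle lies at 7.77 or above and every triangle at 7.35 or below, surrounding liver included.

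The rest of the sinusoidal programme was followed through 22 measured genes of a list of 30 further sinusoidal genes. In beta-catenin-labelled carcinomas 5 of 22 fell and none rose (22.7%, beside 9.58% of all genes falling and 7.74% rising), with a median change of -0.32 against -0.01 over all genes. Ptgs1, cyclooxygenase 1, fell by 1.26 ± 0.14 on the log2 scale (2.40-fold, adjusted p = 1.08e-05), Tfec by 0.85 ± 0.20, Mrc1, the mannose receptor, by 0.73 ± 0.16, and Maf, a transcription factor of sinusoidal cells, by 0.71 ± 0.18. The fifth was Bmp2, which fell by 0.92 ± 0.29 (adjusted p = 0.034). Each was lower in 3 of 3 rats without overlap with surrounding liver. These 5 genes were named because they were called, and the lack of overlap was not set against a share over all genes. In carcinomas 3 of 22 fell (Ptgs1 by 1.02 ± 0.14, Tfec by 0.69 ± 0.21, Mrc1 by 0.51 ± 0.16) and none rose, beside 6.91% of all genes falling and 4.48% rising. In adenomas 4 of 22 fell (Maf, Ptgs1, Gpr182 and Ehd3, by 0.44 to 0.74) and none rose, beside 9.57% falling and 15.4% rising. In adenomas no gene of the list was called without adenoma replicate 4 or when only the 2 groups were fitted, and 2 were without adenoma replicate 1 or 6 or surrounding replicate 6 or 7. In carcinomas 1 was called without surrounding replicate 1, 5 or 6 or carcinoma replicate 3 or 4 and 5 without carcinoma replicate 2, and in beta-catenin-labelled carcinomas 8 were called without adenoma replicate 3. With the control set as the block the counts were 0, 1 and 4.

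Kupffer cells, the sinusoid's macrophages, also express Mrc1, Maf and Tfec, and 12 of their own markers were measured. In beta-catenin-labelled carcinomas 7 of the 12 Kupffer cell and macrophage markers fell (58.3%, beside 9.58% of all genes), among them Cd163 by 1.75 ± 0.25 (adjusted p = 7.61e-05), Cd5l by 1.25 ± 0.27, Clec4f by 1.18 ± 0.27 and Folr2 by 0.55 ± 0.15. Their median change was -0.59. The list averaged 9.03 to 9.47 in surrounding liver, 8.75 to 8.99 in nodules, 8.20 to 9.28 in adenomas, 8.08 to 8.82 in carcinomas and 7.85 to 8.82 in beta-catenin-labelled carcinomas. In adenomas, in carcinomas and in FFPE foci 4 of 12 fell (33.3%), beside 9.57%, 6.91% and 1.36% of all genes, and the other 8 did not pass the test. In adenomas 2 were called without adenoma replicate 4, and in carcinomas 2 were without carcinoma replicate 3 or 4 or surrounding replicate 1, 2, 5, 6 or 7. The part of the macrophages in the sinusoidal changes was not tested. In beta-catenin-labelled carcinomas 3 of the 12 were called without replicate 2 and 4 without replicate 3 or surrounding replicate 2, 5, 6 or 7. In foci none was called without FFPE surrounding replicate 1.

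Among other vascular endothelial genes, 13 of 38 rose in adenomas (34.2%, beside 15.4% of all genes) and 1 fell (beside 9.57%). The median change was 0.39 against 0.02 over all genes. Ecscr, an endothelial surface protein, rose by 1.27 ± 0.21 (2.42-fold, adjusted p = 0.000249), from a mean of 5.88 to 6.92. Mcam, an adhesion molecule of vessels, rose by 1.07 ± 0.24, Cd93 by 0.73 ± 0.16 and Sele, the endothelial selectin, by 0.39 ± 0.08. Each was higher in both rats. The gene that fell was S1pr1 (-0.45 ± 0.15), a sphingosine phosphate receptor, a call lost without adenoma replicate 1, 4 or 6, nodule replicate 5 or surrounding replicate 7. Fitted on the 2 groups alone, 3 of 38 rose in adenomas, and 8 did without surrounding replicate 4. With the control set as the block 7 did in adenomas and 3 in beta-catenin-labelled carcinomas. In beta-catenin-labelled carcinomas 6 of 38 rose (15.8%, beside 7.74%) and none fell, with Procr, the endothelial protein C receptor, up by 1.82 ± 0.25 (3.54-fold, adjusted p = 5.49e-05), Mcam by 1.02 ± 0.25, Aplnr by 0.91 ± 0.26 and Sele by 0.31 ± 0.08. Without replicate 1 of these carcinomas 2 rose and 2 fell, and without replicate 2 or 3 only 3 rose. In carcinomas without the label none of 38 was called, with 6 at an unadjusted limma p under 0.05, beside 3557 of 14217 genes.

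The sheath genes of capillarized vessels were also followed. In adenomas, of 16 basement membrane and capillary matrix genes, 11 rose (68.8%, beside 15.4%) and 1 fell (beside 9.57%), with a median change of 0.93. The laminin chains Lamb1, Lamc1 and Lama4 rose by 1.76 ± 0.52, 1.34 ± 0.34 and 0.98 ± 0.26, and Col18a1, the source of endostatin, fell by 0.65 ± 0.17. The count rested on the fit and on a few arrays. Fitted on adenomas and surrounding liver alone, none of the 16 was called, with a median change of 0.84. In the fit of all frozen groups 2 genes rose without adenoma replicate 6, 3 without surrounding replicate 4, 5 without nodule replicate 5, 6 without adenoma replicate 1 or 2, and 4 with the control set as the block. By rat, the list averaged 8.29, 8.67 and 7.51 in the adenomas of rat 14 and 7.11, 7.48 and 8.22 in those of rat 23, against 7.08 to 7.26 in surrounding liver. Adenoma replicate 4, at 7.11, was the 1 adenoma inside that range. The 3 adenomas with the highest matrix means also had the highest means of bile duct cell markers. The 6 such genes measured averaged 8.43, 8.36 and 6.03 in rat 14 and 6.67, 6.08 and 7.20 in rat 23, against 5.23 to 5.87 in surrounding liver. Of these 6, Krt19, a bile duct keratin, rose by 4.37 ± 1.02 and Epcam by 1.40 ± 0.28 in frozen adenomas, beside 15.4% of all genes. Both also rose in FFPE adenomas, beside 1.29% of all genes. The rest of the 6 were not called in either. Among them Spp1 had changes of 2.15 in frozen and 1.12 in FFPE adenomas, and Cftr of 0.01 and -0.61. Beta-catenin carcinoma replicate 1 (matrix 8.26, bile duct markers 7.87) and nodule replicate 4 (8.58 and 7.87) had the same combination. The part of bile duct-like cells in the vascular and matrix changes was not tested. In beta-catenin-labelled carcinomas 3 of 16 rose (Col4a1 by 1.54 ± 0.41, Col4a2 by 1.17 ± 0.21, Lamc1 by 1.01 ± 0.35; 18.8%, beside 7.74% of all genes) and none fell, and 1 did without replicate 1 or with the control set as the block. In carcinomas 1 of 16 rose and 1 fell, beside 4.48% and 6.91% of all genes. Col4a2 rose by 0.84 ± 0.22, a call lost without carcinoma replicate 1 or 4. Col18a1 fell by 0.61 ± 0.18, a call lost without any of 7 arrays. Of these arrays 3 were carcinomas (replicates 1, 3 and 4) and 4 surrounding (replicates 1, 5, 6 and 7).

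**Figure D5:**
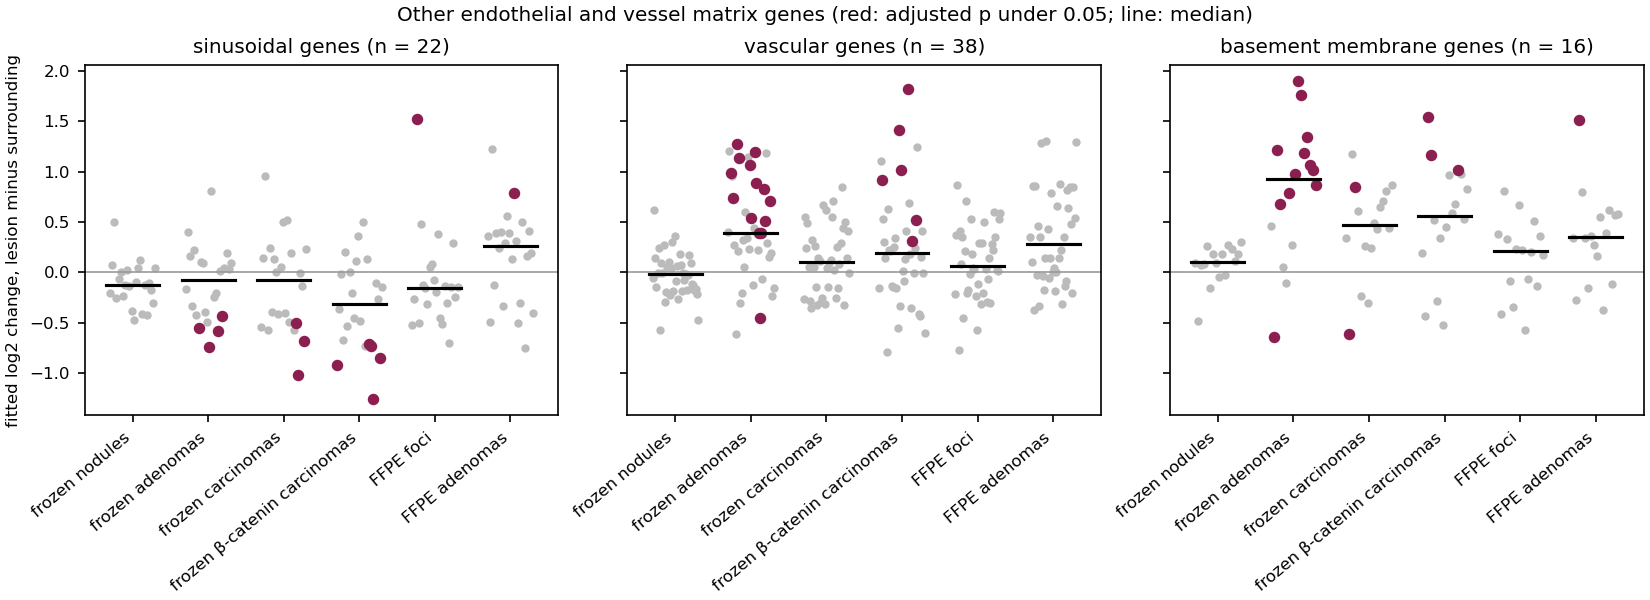
Fitted log2 change from surrounding liver (y axis) of further sinusoidal, vascular and basement membrane genes in 6 lesion groups (x axis), with red points for an adjusted p under 0.05 and a line at the median. In frozen adenomas 11 of 16 basement membrane and 13 of 38 vascular genes rose, beside 15.4% of all genes, and 4 of 22 sinusoidal genes fell, beside 9.57%. Fitted on the 2 groups alone these counts were 0, 3 and 0, and the sinusoidal count was also 0 without adenoma replicate 4.

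In FFPE tissue few genes of these lists were called. Of the 22 sinusoidal genes, Cd36, a fatty acid receptor also expressed by hepatocytes, rose in foci by 1.52 ± 0.32 (adjusted p = 0.00483) and Igfbp7 rose in adenomas by 0.79 ± 0.19 (adjusted p = 0.0216). The shares of all genes rising were 1.81% in foci and 1.29% in adenomas. The Igfbp7 call was lost without adenoma replicate 2, 4 or 5 or surrounding replicate 2 or 3, and the Cd36 call without surrounding replicate 1 or 3. No vascular gene was called in either FFPE lesion (2 and 9 of 38 at an unadjusted limma p under 0.05). Of all 14217 genes, 1895 were at such a p in foci and 1716 in adenomas. Col4a1 was the 1 matrix gene called, rising by 1.51 ± 0.26 in adenomas, beside 1.29% of all genes rising. Ecscr was the 1 vascular gene whose adenoma change differed between frozen and FFPE tissue, by 1.61 ± 0.34 (adjusted p = 0.0168), beside 0.331% of all genes. The call was lost without frozen adenoma replicate 6 or FFPE adenoma replicate 5.

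Of 19 further genes of the VEGF and angiopoietin pathway, 3 rose in frozen adenomas (15.8%, about the 15.4% of all genes): the co-receptors Nrp2 (0.90 ± 0.22) and Nrp1 (0.87 ± 0.28) and the lymphangiogenic ligand Vegfc (0.47 ± 0.15). Ephb4, a venous receptor, rose by 0.60 ± 0.20 in beta-catenin-labelled carcinomas, beside 7.74% of all genes rising. Limma called none in carcinomas, with 2 of the 19 and 3557 of all 14217 genes at an unadjusted p under 0.05. Angptl4 fell by 1.12 ± 0.32 in foci, beside 1.36% of all genes falling. Of 18 hypoxia-responsive genes, Egln3, an oxygen-sensing hydroxylase, was called in 5 lesion groups, rising by 1.37 ± 0.35 in adenomas, 1.75 ± 0.37 in carcinomas, 1.55 ± 0.36 in beta-catenin-labelled carcinomas, 1.60 ± 0.28 in foci and 1.67 ± 0.31 in FFPE adenomas. The shares of all genes rising in these groups were 15.4%, 4.48%, 7.74%, 1.81% and 1.29%, in the same order. In adenomas 3 of the 18 rose (16.7%) and 2 fell (11.1%), near the shares of all genes (15.4% and 9.57%). The list's median changes lay between -0.07 and 0.06 in the 6 lesion groups. Lymphatic endothelial markers, which share Lyve1, gave 1 of 7 called, Prox1, which hepatocytes also express. It fell in adenomas by 0.55 ± 0.12, beside 9.57% of all genes falling. In beta-catenin-labelled carcinomas it fell by 0.42 ± 0.12, beside 9.58%.

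Among the other cell types, stellate cell, fibroblast and pericyte markers gave 2 of 16 rising (Tagln by 1.65 ± 0.56, Col1a1 by 1.42 ± 0.46) and 2 falling (Lrat by 2.28 ± 0.43, Hgf by 0.51 ± 0.15) in beta-catenin-labelled carcinomas, 12.5% each, beside 7.74% and 9.58% of all genes. In FFPE foci and adenomas the same 3 collagen genes rose, Col3a1, Col1a1 and Col1a2 (18.8% of the list, beside 1.81% and 1.29% of all genes), in adenomas by 1.70 ± 0.24, 2.18 ± 0.35 and 1.69 ± 0.35. Of 7 platelet and blood cell markers, Hbb, a globin (-1.22 ± 0.26), Alas2, the erythroid haem synthesis enzyme (-1.02 ± 0.24), and Itga2b, a platelet integrin (-0.66 ± 0.17), fell in adenomas, beside 9.57% of all genes. The other 4 did not pass, and the platelet chemokine Pf4 had a change of 0.88 ± 0.35 (adjusted p = 0.0726). In beta-catenin-labelled carcinomas 2 of 7 fell (Hbb and Ppbp), beside 9.58%. Of 10 B cell and lymphocyte markers, Blnk rose in all 3 comparisons of frozen adenomas and carcinomas with surrounding liver. Its changes were 1.71 ± 0.45, 2.29 ± 0.49 and 2.71 ± 0.47, where 15.4%, 4.48% and 7.74% of all genes rose. The B cell receptor gene Cd79b fell by 0.26 ± 0.09 in adenomas, beside 9.57% of all genes. Of 10 hepatocyte markers, Ttr (-0.42 ± 0.10), Serpina1 (-0.45 ± 0.12) and Hnf4a (-0.24 ± 0.08) fell in adenomas, beside 9.57% of all genes, and Apoa1, the main apolipoprotein of HDL, rose by 1.13 ± 0.27, beside 15.4%. In carcinomas 2 of 10 fell (6.91% of all genes) and in beta-catenin-labelled carcinomas 3 of 10 (9.58%), with none rising in either. Apoa1 also rose, and Fgb, a fibrinogen chain, fell, in FFPE foci and FFPE adenomas. In foci 1.81% of all genes rose and 1.36% fell, and in FFPE adenomas 1.29% rose and 0.872% fell. In nodules limma called no gene of any list. At an unadjusted limma p under 0.05 were 2 of 22 sinusoidal, 0 of 38 vascular and 7 of 12 Kupffer cell genes. Of all 14217 genes, 1811 were.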

How the data were processed

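Expression was measured on 1-colour Affymetrix rat arrays, 28 from frozen and 19 from FFPE liver. Per the labels' protocols, frozen RNA (TRIzol and miRNeasy) was labelled from 250 ng with the 3' IVT Express kit, and FFPE RNA was isolated with an RNeasy FFPE kit. The authors deposited log2 signals per probe set (normalization not given in the sources used here). Probe sets with 1 gene symbol (20826) entered the fits, unlike the 436 naming several and the 9780 naming none, and each of 14217 genes took its brightest probe set in a fixation (1727 genes used another one in FFPE tissue, Lyve1 and Vegfa among them). Each fixation was fitted with limma 3.58.1 in R 4.3.3, with group and rat as fixed terms and an intensity trend (17 and 12 residual degrees of freedom, 29 for the fit of both). The rat pairs samples, since a rat gave both lesions and control tissue. The median correlation of deviations from the group mean was 0.127 for arrays of 1 rat and -0.025 for arrays of different rats in frozen tissue, and 0.11 and -0.04 in FFPE tissue. The number of arrays limits the precision. The rat was taken from sample titles, since the field for the source animal disagrees for rat 21. The 3 arrays named C43 entered no comparison. The text names all markers, the 3 genes most like each by Pearson's r, and up to 4 called genes with the lowest adjusted p per list and comparison; Bmp2, S1pr1 and single called genes complete small counts, and Pf4 was chosen after its values were seen. The markers and the 12 lists of other genes were chosen with earlier results of these data known. The fits were tested on simulated data. Alternatives were other blocks, quantile normalization, other probe set rules and filters, no trend, only the groups compared, and each array left out in turn; their use on the lists and on single probe sets with the control set as block was added after seeing the data.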

Additional observations from a re-analysis of the deposited data

Results flagged for a closer look

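Of 64 sets of a gene and a group with 4 to 10 arrays, 3 had an array far from the others, where chance gives about 1 in 20. Stab2 in frozen adenoma replicate 6 was 7.34, with the nearest adenoma at 8.46. Vwf in beta-catenin carcinoma replicate 1, whose labels disagree, was 7.92, with the nearest at 5.65. Kdr in nodule replicate 2 was 9.39, with the nearest at 9.73. The FFPE array named C43, which entered no comparison, lay above every FFPE surrounding array for Lyve1 (10.78 against 10.30 at most) and Kdr (8.02 against 7.84 at most).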

How the results depend on the processing

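Leaving out each array in turn left 0 to 3 markers called in beta-catenin-labelled carcinomas against surrounding liver, where the reported count is 1. It was 0 without replicate 1 or 3 of that group and 3 without adenoma replicate 3 or 6; without the latter, Plvap rose by 0.48 (adjusted p = 0.0144). The count was 3 with no replicate block (no term for the rat), with the rat as a random block and with only the groups compared, which adds Lyve1 and Fcgr2b. In carcinomas without the label it went from 0 to 2 with only the groups compared. The counts of markers called in the other 9 comparisons stayed at 0 under the alternatives run. Of 3000 recomputed changes of single markers, 113 had the other sign, none of them called. Counts over all genes moved more. With the control set as the replicate block they were 0 in nodules, 2122 in adenomas, 904 in carcinomas, 1444 in beta-catenin-labelled carcinomas and 0 between carcinomas and adenomas, against 32, 3555, 1620, 2463 and 419. With no replicate block they were 93 in nodules, 437 between adenomas and nodules, 2322 between carcinomas and adenomas, 161 in FFPE adenomas and 23 between fixations (47 reported). With the rat as a random block they were 102, 265, 2047, 212 and 28. With only the groups compared they were 213 in nodules, 1460 in adenomas, 1390 in beta-catenin-labelled carcinomas, 2 between adenomas and nodules, 19 between carcinomas and adenomas, 188 in FFPE adenomas and 0 between fixations. Without the intensity trend they were 233 in foci and 137 in FFPE adenomas (452 and 307 reported). Tested over all probe sets, the counts are of 31042 probe sets and not of 14217 genes. They were 5612 in adenomas, 3870 and 2436 in the carcinomas with and without the label, 1139 between carcinomas and adenomas and 6 in nodules. Quantile normalization gave 57 and leaving out dim genes 60 in nodules, and the latter gave 24 between fixations. Leaving out arrays gave 0 to 81 in nodules, 665 to 1861 in carcinomas, 1640 to 2520 in the labelled ones, 0 to 214 between adenomas and nodules, 0 to 632 between carcinomas and adenomas, 0 to 10 between the carcinoma groups, 245 to 488 in foci, 145 to 362 in FFPE adenomas and 25 to 81 between fixations. With only the groups compared, 3 vascular and 0 basement membrane genes rose in adenomas (13 and 11 reported) and 0 sinusoidal genes fell (4 reported); 8 sinusoidal genes fell in beta-catenin-labelled carcinomas (5 reported), as also with no or a random block. In carcinomas without the label, 5 sinusoidal genes fell with no or a random block (3 reported), and with only the groups compared 10 Kupffer cell genes fell (4 reported) and 4 basement membrane genes rose (1 reported). The cause of these moves was not tested.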

Other observations

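The frozen C43 arrays (n = 2) are called normal by their group labels, while other labels call them surrounding tissue under phenobarbital. They had Stab2 at 8.62 and 8.46, Lyve1 at 9.88 and 9.90, Kdr at 9.85 and 9.83 and Plvap at 7.36 and 7.28. Their capillary minus sinusoidal balance was -1.90 and -2.06, and Lyve1 lay below the surrounding range of 10.08 to 10.39 in both.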
